A study of Zea mays with 2 samples.

Results

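Maize genes for the cytoskeleton, and for the chaperones that fold its building blocks, were compared between endosperm of dek40 kernels and wild-type endosperm. The members were taken by words in the deposited gene descriptions: tubulin, actin, profilin, kinesin, myosin, microtubule, formin, T-complex protein, prefoldin or villin. Entries with expansin or proteasome were left out, and a value of 1 or more was required in either library. The words matched 97 genes, of which 94 reached that level, out of 41406 genes in all. The data were 1 RNA library of endosperm, the starch- and protein-storing tissue of the kernel, from maize (Zea mays) labelled dek40 and 1 labelled wild type, both at 12 days after pollination. The samples carry the name dek40, but dek41 stands in the title and design of the series. The sample labels are followed here, so dek40 below means the library labelled so. What allele it is, its inbred background and how many kernels were pooled was not given in the sources used here. Dek stands for defective kernel.

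Levels are given as deposited, as RPKM (reads scaled to gene length and library size) for dek40 and as FPKM (the same for fragments) for the wild type. As deposited, dek40 was 1.34-fold higher at the median of the 25115 genes with at least 1 in both libraries. The dek40 values were therefore multiplied by 0.747 before ratios were taken, so every ratio is relative to the median gene. The log2 ratio of a gene is dek40 over wild type with a pseudocount of 1 added to both, and a gene is called higher or lower from 2-fold on that scale. Each genotype has a single library, so there is no replicate check and no test, and a difference is one between these libraries. The ratios of the deposited values give smallest whole numbers of reads, and intervals beside a ratio are exact 95% Clopper-Pearson intervals from these reads, without a pseudocount. They cover counting error only, and are too wide where the true reads are a multiple of the smallest. Of the 28178 genes at 1 or more in a library after scaling, 7148 had intervals above 0 and 5962 below 0. An interval clear of 0 is therefore common, above all in genes with many reads. The implied totals were 14218436 reads for dek40 and 15669149 for the wild type, and the members had medians of at least 461 and 327 reads. The gene listed as Dek40 in the RefSeq table (GRMZM2G019538) was at 32.0 RPKM in dek40 against 19.6 FPKM in wild type, for a log2 ratio of 0.28. The type of mutation is unknown here, so this level is no check of the label. Defining endosperm genes were present in both libraries: the 22 zein entries summed to 34433.5 RPKM in dek40 and 232077 FPKM in the wild type.

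Microtubules are hollow filaments built from pairs of alpha and beta tubulin, and gamma tubulin starts new ones. In plant cells they form the spindle that separates chromosomes, the phragmoplast that builds the new cell wall, and the cortical arrays that guide cellulose deposition. Actin filaments carry organelles, pulled by myosins, and are remodelled by profilin, by actin-depolymerizing factors and by the ARP2/3 complex that branches them. Newly made tubulin and actin reach their folded form through prefoldin, which hands them to the T-complex chaperonin (also called CCT or TRiC), a ring that closes around its client, and tubulin then passes through dedicated cofactors. Early endosperm grows first as a syncytium and later by cell division, and it ends with cells that fill with starch and protein.

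In dek40, 5 of 15 tubulin genes were called higher and 10 were within 2-fold, 2 of them with ratios below 0, while 2 of 14 actins and ARP2/3 subunits were called higher and 12 were within. Of the 93 members that reached a level of 1 after scaling, 12 were higher and 0 were lower by 2-fold. Over all 28178 genes reaching that level, 6.33% were higher and 4.99% were lower. The 12 were 5 tubulins, 3 motor entries, 2 actins and 2 genes matched through part of a word. As deposited, 27 of 94 members were higher and 0 lower, against 14.7% higher and 2.65% lower over all genes, so the number called depends on the scaling. The higher genes made up 55.9% of all genes called after scaling and 84.7% as deposited. The median log2 ratio of the members was 0.16, against 0.02 over all genes compared. By class it was 0.86 for 15 tubulins, 0.26 for 4 microtubule-associated proteins, 0.32 for 24 motors, 0.34 for 14 folding genes, -0.09 for 14 actins and ARP2/3 subunits, and -0.07 for 15 actin-binding proteins. The interval of the class median was 0.29 to 1.13 for tubulins, -0.06 to 0.72 for motors and -0.15 to 0.75 for folding genes. It was -0.12 to 0.87 (the full range) for microtubule-associated proteins, -0.46 to 0.56 for actins and -0.24 to 0.16 for actin-binding proteins. Genes of a class are no replicates, so these intervals describe spread among genes only. As deposited, the medians of actins and of actin-binding proteins were positive, at 0.33 and 0.28, so a value under 0 here means under the median gene, whether or not the deposited level was also lower.

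**Figure D1:**
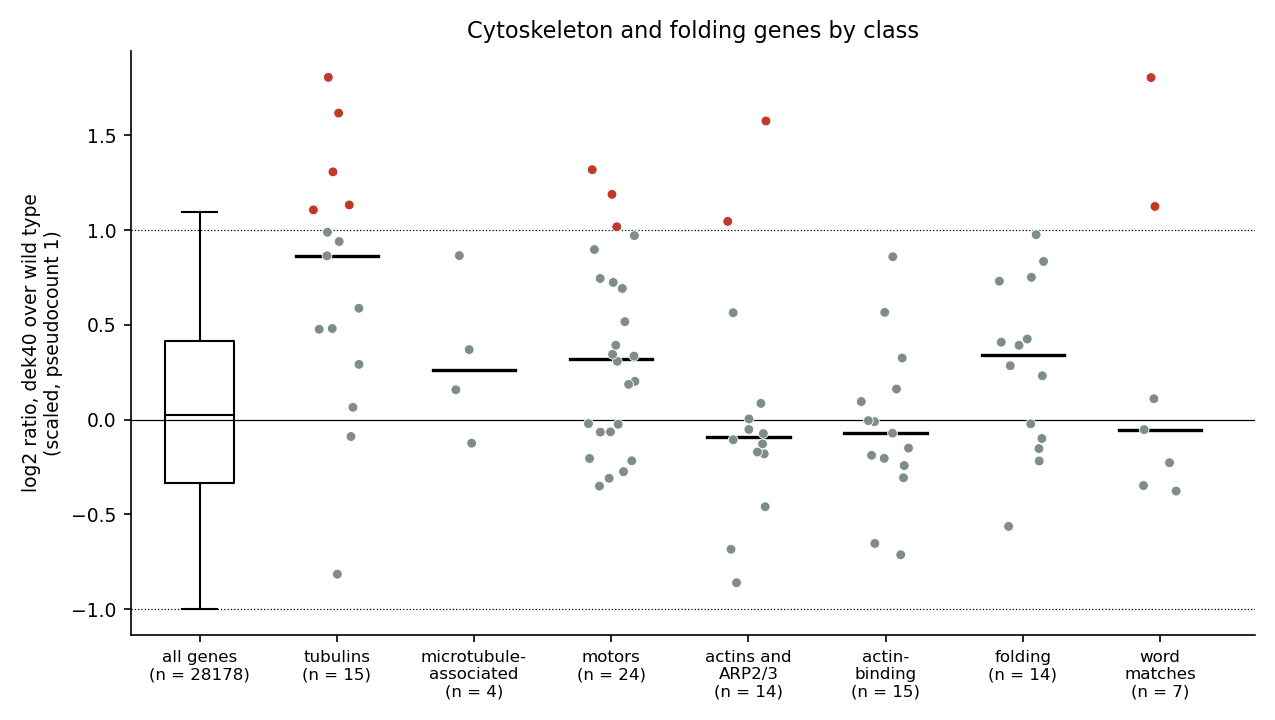
Log2 ratio of each gene, dek40 over wild type (scaled, pseudocount 1), by class, with the class median as a bar and genes called higher in red. The box shows the quartiles of all genes compared with whiskers at the 5th and 95th percentiles, and dotted lines mark 2-fold. Tubulins have the highest class median (0.86), and no member lies below the lower dotted line.

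Alpha tubulin was the most abundant product of the class, with 6 genes that summed to 3705 RPKM in dek40 and 1710 FPKM in the wild type. The alpha-1 gene (GRMZM2G153292, listed as TUA2 in the RefSeq table) was at 1344 RPKM in dek40 and 721 FPKM in the wild type. The alpha-4 gene (GRMZM2G152466, tua4) was at 1335 RPKM in dek40 and 402 FPKM in the wild type. The alpha-4 gene was thus level with alpha-1 in dek40 and well under it in the wild type. Its log2 ratio was 1.31, with an interval of 1.27 to 1.35 on at least 25673 and 8530 reads, and it was the 1 alpha gene called higher. The alpha-1 gene had a log2 ratio of 0.48 (0.45 to 0.51).

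The remaining alpha genes ranged more widely. The alpha-3 gene (AC195340.3_FG001) was at 731 RPKM in dek40 against 446 FPKM in wild type, for a log2 ratio of 0.29. The alpha-5 gene (GRMZM2G099167, tua5) was at 93.3 RPKM in dek40 and 34.6 FPKM in the wild type. Its log2 ratio of 0.99 lay just under the 2-fold line, and it was called higher without a pseudocount (1.01), with the scaling without zeins (1.25) and as deposited (1.404). One alpha-6 entry (GRMZM2G083243, tua6) was at 196 RPKM in dek40 against 97.1 FPKM in wild type, for a log2 ratio of 0.59. The other alpha-6 entry (GRMZM2G040559) was low in both libraries, at 6.04 RPKM in dek40 against 8.70 FPKM in wild type, for a log2 ratio of -0.82. It was the lowest ratio among the tubulins, on at least 17 and 27 reads. Ordered by ratio without a pseudocount, the intervals of neighbouring alpha genes did not overlap. Alpha tubulin genes are close copies, so reads may be split between them by the authors' counting.

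Beta tubulin had the larger ratios: 4 of its 7 genes were called higher, 0 lower, and all 7 had log2 ratios above 0. Over all genes, 6.33% were called higher and 4.99% lower. The beta-2 gene (GRMZM2G334899, TUB2) was at 27.6 RPKM in dek40 and 5.17 FPKM in the wild type. Its log2 ratio of 1.81 was the highest of the members with the pseudocount of 1, though not without a pseudocount. The interval was wide, 0.70 to 3.55, on at least 29 and 6 reads. These smallest reads go with a gene length of 74 bases, and those of the beta-4 gene below with 1341 bases. The true beta-2 reads may therefore be a multiple of the smallest, and its interval too wide. The beta-4 gene (GRMZM2G066191, tub4) was at 15.5 RPKM in dek40 against 3.09 FPKM in wild type, for a log2 ratio of 1.62 (1.51 to 2.31 without a pseudocount). Both are minor beta genes, and their intervals overlap.

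The more abundant beta genes differed less. The beta-5 gene (GRMZM2G133802) was at 153 RPKM in dek40 against 51.7 FPKM in wild type, for a log2 ratio of 1.13 (1.05 to 1.25). The beta-1 gene (GRMZM2G164696) was at 114 RPKM in dek40 against 39.2 FPKM in wild type, for a log2 ratio of 1.11 (1.01 to 1.24). These completed the 4 called genes, and the intervals of both stayed above the 2-fold line. The beta-6 gene (GRMZM2G071790) was at 175 RPKM in dek40 against 67.6 FPKM in wild type, for a log2 ratio of 0.94. The most abundant beta gene, beta-7 (GRMZM2G043822), was at 349.5 RPKM in dek40 against 187 FPKM in wild type, for a log2 ratio of 0.48. The beta-3 gene (GRMZM2G108766, tub3) was at 16.9 RPKM in dek40 against 12.0 FPKM in wild type, for a log2 ratio of 0.06 with an interval of -0.17 to 0.31. Beta-3 was therefore indistinguishable from the median gene at this depth, in a family whose other 6 members had intervals above 0.

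Gamma tubulin sits in the ring complexes from which microtubules grow, and its genes were low in both libraries. The gamma-1 gene (GRMZM2G073888, tubg1) was at 11.6 RPKM in dek40 against 4.31 FPKM in wild type, for a log2 ratio of 0.86 (0.66 to 1.37 without a pseudocount). The gamma-2 gene (GRMZM2G085970, TUBG2) was at 9.84 RPKM in dek40 against 7.89 FPKM in wild type, for a log2 ratio of -0.09 (-0.40 to 0.20). The intervals did not overlap, and gamma-1 was the more abundant gene in dek40 while gamma-2 was in the wild type.

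**Figure D2:**
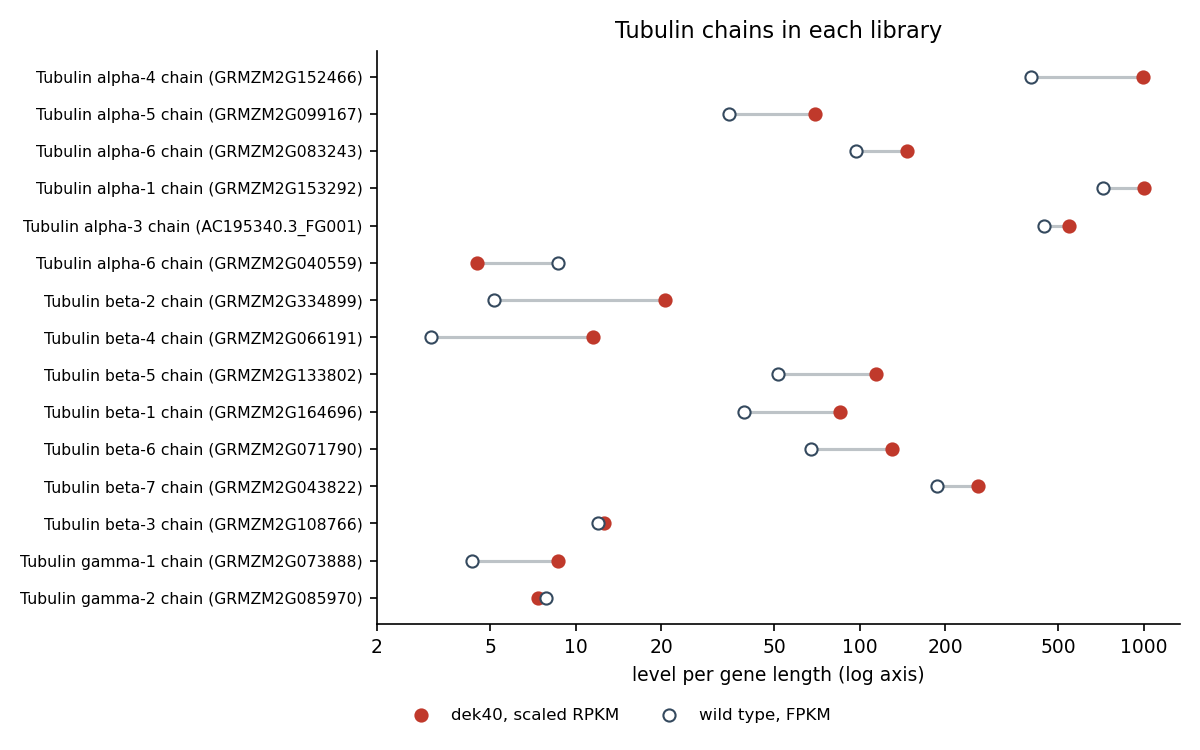
Level of each tubulin gene on a log axis, as scaled RPKM in dek40 (filled) and FPKM in the wild type (open), grouped as alpha, beta and gamma and ordered by log2 ratio. The dek40 point lies to the right for 13 of the 15 genes, and alpha-6 (GRMZM2G040559) and gamma-2 are the exceptions.

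The make-up of each tubulin family differed between the libraries, a comparison that does not depend on the scaling. The alpha-4 gene gave 36.0% of the summed alpha level in dek40 and 23.5% in the wild type. The share of alpha-1 was 36.3% in dek40 and 42.2% in the wild type, and that of alpha-3 was 19.7% in dek40 and 26.1% in the wild type. Among beta genes, beta-7 held 41.0% of the sum in dek40 and 51.1% in the wild type. The beta-5 share was 18.0% in dek40 and 14.1% in the wild type, and the beta-1 share was 13.4% in dek40 and 10.7% in the wild type. Summed alpha over summed beta was 4.35 in dek40 and 4.68 in the wild type, so both families were higher by similar factors. After scaling, the alpha sum was 1.62-fold and the beta sum 1.74-fold that of the wild type.

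**Figure D3:**
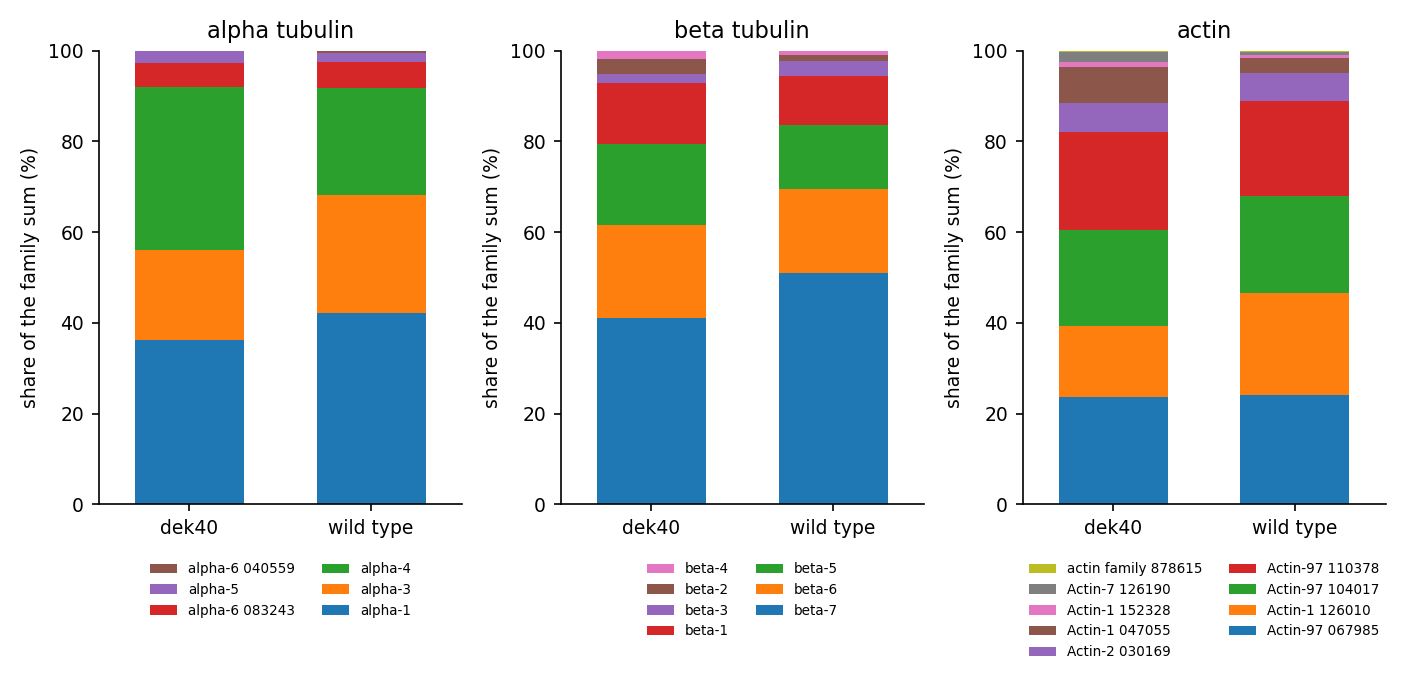
Share of each gene in the summed level of its family, in percent, for alpha tubulin, beta tubulin and actin, in dek40 (left bar) and wild type (right bar). The alpha-4 share is 36.0% in dek40 and 23.5% in the wild type, and the beta-7 share is 41.0% in dek40 and 51.1% in the wild type.

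Proteins that bind microtubules showed smaller ratios, and 0 of the 4 genes were called. MAP65 proteins cross-link microtubules in the phragmoplast and other bundles. Their entries were at 19.98 RPKM in dek40 and 11.3 FPKM in the wild type (GRMZM2G112337, log2 ratio 0.37), at 12.1 RPKM in dek40 and 8.005 FPKM in the wild type (GRMZM2G141208, 0.16), and at 38.2 RPKM in dek40 and 31.2 FPKM in the wild type (GRMZM2G101874, -0.12). The most abundant of them was the one with the negative ratio. A gene described as TORTIFOLIA1 (GRMZM2G078725), which in Arabidopsis acts on cortical microtubules and the direction of organ growth, was at 11.2 RPKM in dek40 and 4.14 FPKM in the wild type. Its log2 ratio was 0.87, and without a pseudocount the interval was 0.70 to 1.33.

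Kinesins walk along microtubules and move chromosomes, vesicles or other microtubules. Their 13 entries had a median log2 ratio of 0.69 and summed to 191 RPKM in dek40 and 101 FPKM in the wild type. Of them 2 (15.4%) were called higher and 0 lower, against 6.33% and 4.99% over all genes. The kinesin heavy chain kin4 (GRMZM2G320689) was at 14.3 RPKM in dek40 against 3.68 FPKM in wild type, for a log2 ratio of 1.32. KIN13 (GRMZM2G034828) was at 7.66 RPKM in dek40 against 1.95 FPKM in wild type, for a log2 ratio of 1.19. Without a pseudocount they were 2.90-fold and 2.94-fold higher, with intervals of 1.05 to 2.05 and 1.23 to 1.89 on the log2 scale. The pseudocount lowers the ratios of such low genes, and with a pseudocount of 5 both calls ended, at 0.85 for GRMZM2G320689 and 0.63 for GRMZM2G034828.

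A further group of kinesins lay between the median gene and the 2-fold line. The entry kin2 (GRMZM2G136838) was at 8.68 RPKM in dek40 against 2.82 FPKM in wild type, for a log2 ratio of 0.97 that becomes 1.20 (0.90 to 1.51) without a pseudocount. The most abundant kinesin (GRMZM2G117771) was at 40.6 RPKM in dek40 against 15.8 FPKM in wild type, for a log2 ratio of 0.90. A heavy chain-like entry (GRMZM2G385925) was at 33.1 RPKM in dek40 against 14.4 FPKM in wild type, for a log2 ratio of 0.74. In all, 8 of the 13 kinesins had intervals above 0, against 7148 of 28178 over all genes.

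The other kinesins were near or under the median gene. The entry KIN1 (GRMZM2G129569) was at 10.4 RPKM in dek40 and 10.2 FPKM in the wild type. Its log2 ratio of -0.35 was the lowest, and its interval of -0.59 to -0.19 was the 1 kinesin interval below 0. A kinesin light chain (GRMZM2G147377), which in animals links a kinesin to its cargo, was at 19.8 RPKM in dek40 against 15.5 FPKM in wild type, for a log2 ratio of -0.06. A heavy chain without a symbol (GRMZM2G124883) was at 18.6 RPKM in dek40 against 14.6 FPKM in wild type, for a log2 ratio of -0.07. The order of the kinesins is loose, since each interval overlapped that of its neighbour in the order.

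Myosins are the motors of actin filaments and gave none of the calls. Myosin XI (GRMZM2G034362), of the class that drives organelle movement in plants, was at 20.3 RPKM in dek40 against 15.4 FPKM in wild type, for a log2 ratio of -0.02. Myosin VIII ZMM3 (GRMZM2G113202) was at 6.54 RPKM in dek40 against 5.84 FPKM in wild type, for a log2 ratio of -0.22. An unconventional myosin heavy chain (AC155377.1_FG001) was at 17.0 RPKM in dek40 against 9.79 FPKM in wild type, for a log2 ratio of 0.34 with an interval of 0.24 to 0.51. The 5 entries described as myosin-like or paramyosin, words that need not mean a motor, ranged from -0.31 to 0.39. The most abundant of these, GRMZM2G152688, was at 133 RPKM in dek40 against 101 FPKM in wild type, for a log2 ratio of -0.02. The next, GRMZM2G055538, was at 97.3 RPKM in dek40 against 84.0 FPKM in wild type, for a log2 ratio of -0.21. GRMZM2G076415 was at 37.5 RPKM in dek40 against 21.1 FPKM in wild type, the highest ratio of these 5 at 0.39.

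The 3 entries described as microtubule motor were low in both libraries. AC185471.3_FG005 was at 2.11 RPKM in dek40 and 0.274 FPKM in the wild type and was called higher at 1.02. It rests on at least 7 and 1 reads, its interval ran from -0.43 to 8.02, and with a pseudocount of 5 its ratio was 0.32. With the 8 myosin-like and microtubule motor entries left out, a choice made after seeing the data, 2 of 16 motors were higher and the motor median was 0.34.

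**Figure D4:**
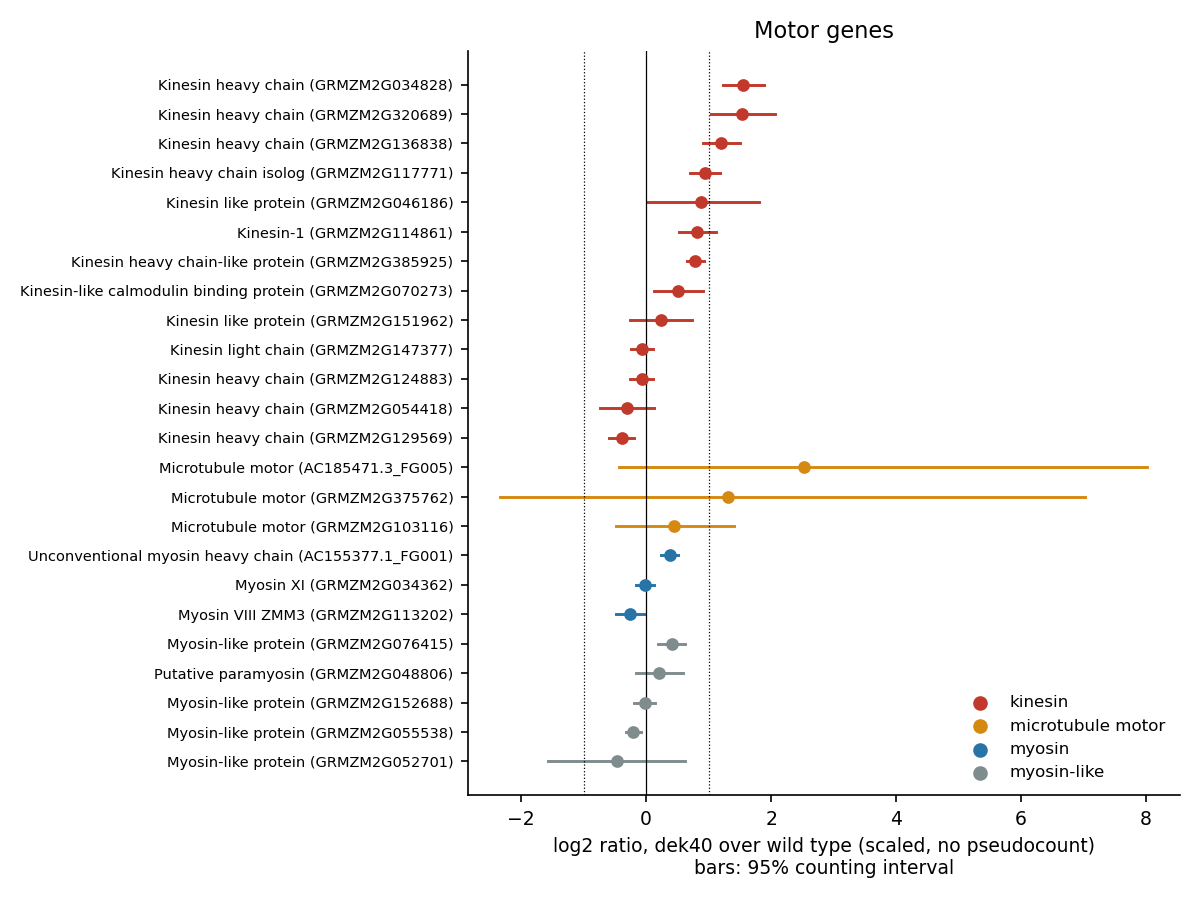
Log2 ratio of each motor gene, dek40 over wild type (scaled, no pseudocount), with 95% counting intervals as bars and dotted lines at 2-fold. Kinesins reach up to 1.55 (KIN13), the 3 myosins lie between -0.26 and 0.38, and the widest bars belong to microtubule motor entries with few reads.

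The 4 most abundant actin genes lay under the median gene after scaling, with log2 ratios between -0.68 and -0.11. The 9 actin entries summed to 1560 RPKM in dek40 and 1298 FPKM in the wild type, which after scaling is 0.898 of the wild type. The most abundant, an Actin-97 entry (GRMZM2G067985), was at 369.8 RPKM in dek40 against 313 FPKM in wild type, for a log2 ratio of -0.18 (-0.23 to -0.13). The other Actin-97 entries were at 329 RPKM in dek40 and 277 FPKM in the wild type (GRMZM2G104017, log2 ratio -0.17), and at 338 RPKM in dek40 and 272 FPKM in the wild type (GRMZM2G110378, log2 ratio -0.11). These 3 share a description and had nearly equal levels and ratios, and reads may be shared between them.

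Among the entries described as Actin-1, the ratios pointed both ways. The entry act1 (GRMZM2G126010) was at 243 RPKM in dek40 and 293 FPKM in the wild type. It had the lowest actin ratio, -0.68 (-0.75 to -0.63), and its rank among the actins was 4 in dek40 and 2 in the wild type. Another Actin-1 entry (GRMZM2G047055) was called higher, at 124 RPKM in dek40 against 44.2 FPKM in wild type, for a log2 ratio of 1.05. Its interval of 0.95 to 1.18 reaches under the 2-fold line, and with a pseudocount of 5 its ratio was 0.98 and the call ended. A further one (GRMZM2G152328) was at 17.2 RPKM in dek40 against 8.35 FPKM in wild type, for a log2 ratio of 0.56, and matches the same gene as GRMZM2G047055 in the RefSeq table. An Actin-7 entry (GRMZM2G126190) was the other one called, at 35.0 RPKM in dek40 against 8.12 FPKM in wild type, for a log2 ratio of 1.58 (1.15 to 2.26 without a pseudocount). Of the summed actin level, GRMZM2G047055 held 7.92% in dek40 and 3.41% in the wild type. The Actin-7 entry held 2.25% in dek40 and 0.625% in the wild type, while Actin-2 (GRMZM2G030169) held 6.41% in dek40 and 6.07% in the wild type.

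The ARP2/3 complex starts branches on actin filaments, and none of its 5 entries were called. Subunit 1B (GRMZM2G178801), part of the core of the complex, was at 34.1 RPKM in dek40 and 47.1 FPKM in the wild type. Its log2 ratio of -0.86 (-1.04 to -0.73 without a pseudocount) was the lowest of all members with the pseudocount of 1. Without a pseudocount it was -0.89, and Profilin-1 (-1.70) and the alpha-6 entry GRMZM2G040559 (-0.95), both on few reads, were lower. The subunit 5 entry (GRMZM2G108976) was at 61.9 RPKM in dek40 against 43.5 FPKM in wild type, for a log2 ratio of 0.09. The subunit 4 entries GRMZM2G112015 and GRMZM2G118586 had log2 ratios of 0.00 and -0.05 and match a single RefSeq gene. Subunit 3 (GRMZM2G118786) was at 4.41 RPKM in dek40 against 4.90 FPKM in wild type, for a log2 ratio of -0.46. The subunits thus did not share a ratio: the interval of subunit 1B lay apart from those of subunits 4 and 5.

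Of the actin-binding proteins, 0 of 15 were called, and their median log2 ratio of -0.07 was close to the median gene. Their most abundant entries were profilins and actin-depolymerizing factors. Profilin binds actin monomers and feeds them to growing filaments. Profilin-4 (GRMZM2G108780) was at 944 RPKM in dek40 against 783 FPKM in wild type, for a log2 ratio of -0.15, and Profilin-5 (GRMZM5G877388) was at 645 RPKM in dek40 against 484 FPKM in wild type, for a log2 ratio of -0.01. Actin-depolymerizing factors cut and disassemble old filaments. The ADF3 entries were at 526 RPKM in dek40 and 465 FPKM in the wild type (GRMZM2G060702, log2 ratio -0.24) and at 433 RPKM in dek40 and 400.4 FPKM in the wild type (GRMZM2G002825, log2 ratio -0.31). After scaling, the intervals of both ADF3 entries lay below 0, as did that of ADF6 (GRMZM2G130678), with a log2 ratio of -0.20. As deposited, the 3 ratios were positive, at 0.18 for GRMZM2G060702, 0.11 for GRMZM2G002825 and 0.21 for ADF6. Their sign therefore rests on the scaling, which the intervals do not cover.

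Other genes of the class ranged more widely. The lowest actin-depolymerizing factor entry (GRMZM2G015127) was at 3.37 RPKM in dek40 against 2.30 FPKM in wild type, with its log2 ratio of 0.10 close to the median gene. An actin-depolymerizing factor without a number (GRMZM2G064875) was at 10.6 RPKM in dek40 against 3.90 FPKM in wild type, for a log2 ratio of 0.86 (0.43 to 1.63 without a pseudocount). Profilin-1 (GRMZM2G074361) was at 0.536 RPKM in dek40 and 1.296 FPKM in the wild type, on at least 3 and 8 reads. It had the lowest log2 ratio of the class, -0.71, with an interval from -4.24 to 0.36. Of the capping proteins, which close the fast-growing filament end, the beta subunit (GRMZM2G097426) was at 27.1 RPKM in dek40 against 15.955 FPKM in wild type, for a log2 ratio of 0.33. An entry described as actin associated protein (GRMZM2G151700) was at 69.4 RPKM in dek40 against 82.1 FPKM in wild type, for a log2 ratio of -0.65.

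The T-complex chaperonin stood above the median gene in all 6 entries matched by its name, without a call at 2-fold. These entries cover the alpha, gamma, delta, epsilon and zeta subunits only. Any further subunit may be among the TCP-1/cpn60 entries outside the members. The entries summed to 835 RPKM in dek40 and 429 FPKM in the wild type, 1.46-fold after scaling, and all 6 intervals lay above 0. Over all genes, 7148 of 28178 intervals did. These entries had medians of at least 2978 reads in dek40 and 1589.5 in the wild type, so even a small ratio clears 0. The zeta subunit (GRMZM2G109425) was at 192 RPKM in dek40 against 80.2 FPKM in wild type, for a log2 ratio of 0.83 (0.77 to 0.92). The epsilon subunit (GRMZM2G070542) was at 170.0 RPKM in dek40 against 76.2 FPKM in wild type, for a log2 ratio of 0.73. A delta entry (GRMZM2G122767) was at 32.2 RPKM in dek40 against 13.9 FPKM in wild type, for a log2 ratio of 0.75. These 3 had overlapping intervals and formed the upper set.

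The other chaperonin entries formed a lower set. The second delta entry (GRMZM2G085909) was at 73.8 RPKM in dek40 against 40.8 FPKM in wild type, for a log2 ratio of 0.43. The alpha subunit (GRMZM2G039263), the most abundant, was at 227 RPKM in dek40 against 129 FPKM in wild type, for a log2 ratio of 0.39 (0.33 to 0.46). The gamma subunit (GRMZM2G069765) was at 139 RPKM in dek40 against 88.6 FPKM in wild type, for a log2 ratio of 0.23 (0.12 to 0.34). The interval of epsilon did not overlap that of the second delta entry, although all subunits sit in the same ring. As deposited, zeta, epsilon and the first delta entry passed 2-fold, as did prefoldin subunit 5.

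Prefoldin, the complex that delivers unfolded chains to the chaperonin, was split over its 5 entries, which cover subunits 1, 2, 3 and 5 only. Subunit 5 (GRMZM2G014676) was at 80.6 RPKM in dek40 against 30.1 FPKM in wild type, for a log2 ratio of 0.98 (0.77 to 1.24), just short of the 2-fold line. Subunit 3 (GRMZM2G102580) was at 121 RPKM in dek40 against 74.3 FPKM in wild type, for a log2 ratio of 0.28. Subunit 1 (GRMZM2G135691) was at 46.9 RPKM in dek40 against 37.7 FPKM in wild type, for a log2 ratio of -0.10. The subunit 2 entries were at 193 RPKM in dek40 and 161 FPKM in the wild type (AC203985.4_FG005, log2 ratio -0.15) and at 29.5 RPKM in dek40 and 22.4 FPKM in the wild type (GRMZM2G135354, log2 ratio -0.02). Subunit 5 stood apart from the other 4 entries by its interval.

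The tubulin cofactors, which act after the chaperonin, pointed in different directions. Chaperone A (GRMZM2G143627), which holds beta tubulin, was at 187 RPKM in dek40 against 105 FPKM in wild type, for a log2 ratio of 0.41 (0.26 to 0.57). Chaperone B (GRMZM2G127581), which holds alpha tubulin, was at 83.6 RPKM in dek40 against 92.8 FPKM in wild type, for a log2 ratio of -0.56 (-0.70 to -0.44). Chaperone E (GRMZM2G060857), which also works on alpha tubulin, was at 15.6 RPKM in dek40 against 13.7 FPKM in wild type, for a log2 ratio of -0.22 (-0.45 to -0.02). None of the 3 was called.

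**Figure D5:**
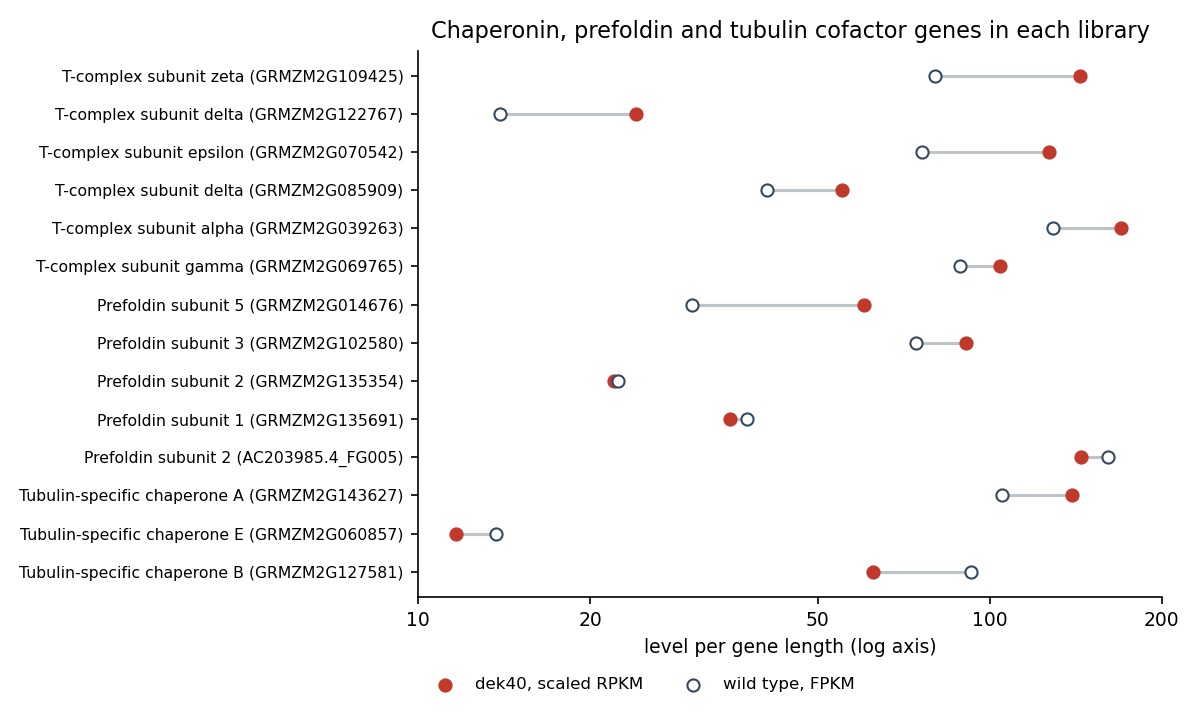
Level of each chaperonin, prefoldin and tubulin cofactor gene on a log axis, as scaled RPKM in dek40 (filled) and FPKM in the wild type (open), grouped by complex and ordered by log2 ratio. All 6 T-complex entries have the dek40 point on the right, while prefoldin and cofactor entries lie on both sides.

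Set side by side without a pseudocount, the classes can be compared free of the scaling. The tubulin median lay 1.04 above the actin median on the log2 scale, 0.61 above that of the folding genes and 0.56 above that of the motors. The motor and folding medians each join unlike groups. Among motors, the median was 0.78 for 13 kinesins and -0.02 for 8 myosin and myosin-like entries, against 0.95 for tubulins. The 3 microtubule motor entries, on few reads, had a median above that of the tubulins. Among folding genes, the median was 0.59 for 6 T-complex entries, -0.02 for 5 prefoldin entries and -0.24 for 3 tubulin cofactors. Folding genes lay 0.43 above actins. Actins and actin-binding proteins had medians of -0.09 each. Summed beta tubulin over summed actin was 0.546 in dek40 and 0.282 in the wild type, and alpha tubulin over actin was 2.37 in dek40 and 1.32 in the wild type. These are descriptions of 2 libraries with no replicate check.

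The words also took 7 genes that are no part of actin, myosin or tubulin families by name, and 2 of them were called higher. Caltractin, also called centrin, is a calcium-binding protein of microtubule-organizing centres and was matched through its last letters. One caltractin entry (GRMZM2G033846) was at 79.8 RPKM in dek40 against 16.4 FPKM in wild type, for a log2 ratio of 1.81 (1.59 to 2.15 without a pseudocount). The most abundant caltractin entry (GRMZM2G048846) was at 161 RPKM in dek40 against 153 FPKM in wild type, for a log2 ratio of -0.35. The other called gene is a UDP-forming glucan-protein synthase (GRMZM2G073725), matched through the word forming, at 241 RPKM in dek40 against 82.1 FPKM in wild type, for a log2 ratio of 1.13. A chromatin remodelling subunit (GRMZM2G121510, -0.05) and a chloroplast channel protein (GRMZM2G124563, -0.23) were within 2-fold. Without these 7, the calls were 10 higher (11.6%) and 0 lower of 86 members, and the median was 0.19. Over all genes, 6.33% were higher and 4.99% lower.

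Genes outside the members were taken by other words linked to the cytoskeleton or to chaperonins, among them dynamin, dynein, ROP, annexin, spindle and chaperonin. The chaperonin words gave 9 and 8 of these genes, with medians of 0.71 and 0.73, and include chaperonins described as mitochondrial or by the name CHL-CPN10. Of the 41 genes taken by all these words, 5 were called higher and 1 lower, against 6.33% and 4.99% over all genes. Their median was 0.56. As deposited, 19 of the 41 were higher and 0 lower, against 14.7% and 2.65% over all genes. Descriptions of the TCP-1/cpn60 chaperonin family, to which the T-complex belongs, had 1 of 9 called higher (GRMZM2G074790, 1.19). This family name also covers organelle chaperonins, and the files do not give the subunit. The mitochondrial chaperonin CPN60-2 (GRMZM2G416120) was the highest of the 41, at 1.89. Annexins, which bind membranes and calcium, had 2 of 5 higher. ROP and Rac-like GTPases, switches of cytoskeletal growth, had 0 of 5 called and a median of 0.14. Dynein light chains pointed both ways, with GRMZM2G472231 at 125 RPKM in dek40 and 199 FPKM in the wild type (-1.08) and GRMZM2G145027 at 12.3 RPKM in dek40 and 4.06 FPKM in the wild type (1.01). The spindle checkpoint gene MAD2 (GRMZM2G047143) was at 30.9 RPKM in dek40 against 11.8 FPKM in wild type, for a log2 ratio of 0.92.

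Marker genes of other states and cell types also differed between the libraries. Beside the counts below, 6.33% of all genes were called higher and 4.99% lower. All 22 zein entries were called lower, with a median log2 ratio of -3.21, and zeins made up 2.49% of the summed level in dek40 and 16.1% in the wild type. In the list of dividing cells (PCNA, minichromosome maintenance proteins and cyclins) 6 of 8 genes were higher, and their sum was 338 RPKM in dek40 and 103 FPKM in the wild type. Basal transfer layer markers were lower in 6 of 7 entries, with sums of 337 RPKM in dek40 and 1487 FPKM in the wild type. Of the embryo entries 3 of 8 were lower, with sums of 531 RPKM in dek40 and 744 FPKM in the wild type, and photosynthesis entries, 1 of 11 higher and 3 lower, summed to 27.6 RPKM in dek40 and 40.5 FPKM in the wild type. The aleurone list matched only 1 entry, AL-9, which was higher, at 7778 RPKM in dek40 and 2607 FPKM in the wild type. The part of these differences in the tubulin, kinesin and chaperonin ratios was not tested. In bulk tissue, fewer cells of a type and less RNA per cell cannot be told apart. The files list no gene at 0, and whether genes without reads were left out is not given. A marker absent from a library could therefore not be seen here.

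At the level threshold, the members just inside were a FYVE actin-binding-domain entry (AC234180.1_FG002), at 1.01 RPKM in dek40 and 0.874 FPKM in the wild type, and a caltractin entry (GRMZM2G096228), at 0.917 RPKM in dek40 and 1.19 FPKM in the wild type. Just outside were a putative actin (AC194350.3_FG001) at 0.569 RPKM in dek40 and 0.129 FPKM in the wild type, and an ADF5 entry (GRMZM2G147775) at 0.488 RPKM in dek40 and 0.531 FPKM in the wild type. The third one outside was a caltractin (GRMZM2G449944) at 0.318 RPKM in dek40 and 0.0360 FPKM in the wild type.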

How the data were processed

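Endosperm RNA of 1 dek40 and 1 wild-type library was sequenced. The authors deposited RPKM values for dek40 and FPKM values for the wild type, per the file headers. Bowtie2 2.1.0 and the build B73 RefGen v3 are named in the submitters' processing notes. How reads were counted, on which annotation and with which filters was not given in the sources used here. Ratios of the deposited values were whole-number fractions times 1.1020 within a relative tolerance of 1e-12 for all 41406 genes. With gene lengths taken as whole numbers, the smallest reads summed to 86.3% (dek40) and 86.5% (wild type) of the implied totals. They are lower bounds, and whether they are reads or pairs is not known. No count test was run.

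The members and lists were chosen with earlier results of these data known. Classes were set from description words. Named were all called members, the 4 most abundant of each class, its extremes at 10 or more, and all T-complex and prefoldin entries. Other members were named after their values were seen. Symbols came from the RefSeq gene table (Zm-B73-REFERENCE-NAM-5.0), another build, in which 81 of the 94 members were found. No sequence or coordinate is given. Python 3.11.15, numpy 2.4.6, pandas 2.3.3 and scipy 1.17.1 were used, and the read recovery and calls were tested on simulated data. Alternatives changed the scaling, pseudocount, minimum level, fold threshold and members; those on low reads, entries sharing a RefSeq gene and myosin-like entries were added after seeing the data.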

Additional observations from a re-analysis of the deposited data

How the results depend on the processing

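No paired analysis was possible because each genotype has 1 library, and for the same reason no library could be left out. With the values as deposited, members called higher numbered 27 (all genes 4282 higher, 771 lower), and the class medians were 1.25 for tubulins, 0.28 for actin-binding proteins and 0.76 for folding genes. Scaling by the summed level without zeins, which puts the median gene at 0.26, gave 22 members higher and 3051 genes higher. The medians of actins and actin-binding proteins then turned positive, at 0.17 and 0.15. Members called higher kept all 12 genes under both scalings, which had to happen. The dek40 factors of 1 (as deposited) and 0.895 (without zeins) are above 0.747, so every ratio rises. Without a pseudocount 3335 genes were higher and 2533 lower, with 18 members higher and 1 lower (Profilin-1, GRMZM2G074361, on few reads). The 6 members gained were alpha-5, gamma-1, TORTIFOLIA1, kin2, GRMZM2G064875 and GRMZM2G375762. A pseudocount of 5 left 514 genes higher and 558 lower, and 8 of the 12 members, without GRMZM2G034828, GRMZM2G320689, GRMZM2G047055 and AC185471.3_FG005. A minimum level of 5 gave 1152 higher of 17305 genes, where 1784 of 28178 were higher at a minimum of 1, so fewer genes were tested. At 1.5-fold 27 members were higher and 5 lower (all genes 4850 and 3818), and at 4-fold 0 members were higher (all genes 177 and 223). Of the summary values of the alternatives, 94 stayed within 1.5 times the count or within the interval of the class median. The other 21 moved further, and some of both are given above. Staying within the interval did not always keep the sign: the actin median was -0.09 in the main setting and 0.33 as deposited. No called member changed sign, but none of the settings could make a ratio of 2-fold or more negative. Few reads widen the intervals of low genes.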

Other observations

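In the RefSeq table, GRMZM2G048846 (caltractin, log2 ratio -0.35) and GRMZM2G048806 (described as putative paramyosin, 0.19) are adjacent genes with different ratios. With 1 entry kept for each RefSeq gene that 2 entries match, a choice made after seeing the data, 11 of 91 members were higher, since GRMZM2G047055 is then left out. Leaving out members with fewer than 20 smallest reads in either library, also chosen after seeing the data, left 10 of 81 members higher, without the beta-2 tubulin (GRMZM2G334899) and AC185471.3_FG005. Smallest reads are lower bounds, and those of beta-2, at 27.6 RPKM in dek40, go with a length of 74 bases. Its true reads may therefore be above this limit.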
